A study of Mus musculus with 24 samples.

Results

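The stretches of the mouse autosomes that stood furthest from the usual read level of their chromosome in unprecipitated chromatin are described here, on each side of that level. A 100 kb bin was taken as high where its mean level in the 8 input libraries, in reads per M reads of the library (CPM), was over 1.5 times the median of the nonzero bins of its chromosome, and as low where it was under 0.5 times that median. Of 24033 autosomal bins with reads in all 8 input libraries, 190 were high and 165 were low, which left 23678 other bins. The bins were thus chosen by their input level, so their input level and any ratio to input are given as description, with no test. No genome sequence was used here, so repeat content and mappability of a bin were not measured. The working name of these bins, repeat-heavy and poorly mappable, was set against RefSeq gene annotation and against the recurrence of RefSeq promoter sequence, both given below.

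Mouse embryonic fibroblasts (MEFs) of the C57BL6 strain were either Sirt7 knockout (KO) or wild type (WT), and female or male. SIRT7 is a nuclear deacetylase of the sirtuin family. All 12 groups, the WT ones included, had received 5 Gy of X-rays and 30 min of recovery, and no unirradiated cells were analysed here. Chromatin was precipitated with an antibody against the phosphorylated histone gH2AX or against H2AX, or was left as input, in female KO, female WT, male KO and male WT cells, with 2 libraries in each of the 12 groups. Whether both libraries of a group had separate cultures or animals behind them is not labelled, so p-values measure only the spread between these samples, which may be technical. A difference between genotypes or sexes, or between the sexes in the KO change, cannot be told apart from a difference between the cells used.

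Satellite DNA is a short unit repeated in tandem over long arrays, and in mouse the major and minor satellites build the pericentromeric and centromeric chromatin of each chromosome. Reference assemblies hold only fragments of such arrays, so that reads of many copies pile up on the few copies that were assembled. Recently duplicated gene families pose the reverse problem, since a short read that matches several near-identical copies has no single position and may be discarded or spread over them. Phosphorylation of H2AX to gH2AX by the kinases of the damage response spreads along the chromatin around a DNA double-strand break. How reads with several alignments were handled is not given in the sources used here, so a count over a repeat cannot be assigned to its locus, and bins that share a repeat are not independent of each other.

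The likeness of copies inside these bins can be read from the RefSeq promoters (build GRCm38.p6, 250 bases before to 50 bases after a gene's start). One pair is shown from each side, with the differing base in capitals, because a read that misses that base matches both copies equally. Vmn1r242 (chr7:20233779-20234078, minus strand) and Vmn1r111 (chr7:20703167-20703466, minus strand) encode vomeronasal receptors of type 1, the receptors of the organ that senses pheromones, and lie in low bins.
Vmn1r242: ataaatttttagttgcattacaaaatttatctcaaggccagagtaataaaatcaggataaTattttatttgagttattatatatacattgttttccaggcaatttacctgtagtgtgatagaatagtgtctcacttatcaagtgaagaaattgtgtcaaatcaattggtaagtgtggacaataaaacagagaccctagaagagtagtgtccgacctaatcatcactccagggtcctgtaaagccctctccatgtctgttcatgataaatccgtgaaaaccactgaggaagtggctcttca
Vmn1r111: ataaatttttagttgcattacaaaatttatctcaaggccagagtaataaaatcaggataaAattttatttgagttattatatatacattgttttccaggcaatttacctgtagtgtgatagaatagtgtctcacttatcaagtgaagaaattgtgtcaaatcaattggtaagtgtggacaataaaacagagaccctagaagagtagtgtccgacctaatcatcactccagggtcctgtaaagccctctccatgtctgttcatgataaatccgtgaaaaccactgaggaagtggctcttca
These windows differed at 1 of 300 bases, and the 51 Vmn1r promoters of this cluster of low bins comprised 30 distinct sequences. Gm3182 (chr14:4481558-4481857, plus strand) and Gm7876 (chr14:4709051-4709350, plus strand) are predicted genes in high bins near the start of chromosome 14.
Gm3182: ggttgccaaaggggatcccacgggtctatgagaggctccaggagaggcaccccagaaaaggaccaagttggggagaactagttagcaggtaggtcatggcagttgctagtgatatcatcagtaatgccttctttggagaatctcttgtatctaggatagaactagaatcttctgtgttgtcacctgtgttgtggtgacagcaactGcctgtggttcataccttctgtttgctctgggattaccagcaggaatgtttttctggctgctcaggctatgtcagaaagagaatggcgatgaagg
Gm7876: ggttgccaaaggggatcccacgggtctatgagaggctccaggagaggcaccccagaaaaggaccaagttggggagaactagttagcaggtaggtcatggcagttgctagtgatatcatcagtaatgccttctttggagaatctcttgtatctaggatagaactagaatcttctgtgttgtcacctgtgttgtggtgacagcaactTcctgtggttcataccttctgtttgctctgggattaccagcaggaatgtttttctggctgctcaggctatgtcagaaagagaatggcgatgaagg
They also differed at 1 of 300 bases, and the 69 promoters of that cluster comprised 65 distinct sequences. On chromosome 2 the promoters of Gm4724 (chr2:175435728-175436027, minus strand), Gm2026 (chr2:175965105-175965404, plus strand), Gm14434 (chr2:176486700-176486999, minus strand) and Gm14308 (chr2:176636270-176636569, minus strand), all in low bins, were identical, and the shared sequence is printed once.
Gm4724: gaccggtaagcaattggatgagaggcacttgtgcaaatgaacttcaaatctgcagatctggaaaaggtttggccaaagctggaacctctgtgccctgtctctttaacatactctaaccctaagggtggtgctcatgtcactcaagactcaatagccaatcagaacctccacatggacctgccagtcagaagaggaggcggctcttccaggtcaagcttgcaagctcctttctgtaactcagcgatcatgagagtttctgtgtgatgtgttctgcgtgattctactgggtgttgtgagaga
The 31-base words of that sequence were found at a median of 13 positions among all RefSeq promoter windows. One of the satellite bins also carries an annotated microRNA gene, Mir101c (mature sequence at chr9:3038680-3038698, minus strand), shown with its seed, bases 2 to 8, in capitals. The high side held 7 microRNA genes in 4 bins, and the low side held 2 in 1 bin.
mmu-miR-101c: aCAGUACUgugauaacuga

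Over all promoters, 31-base words that recurred at another promoter position made up a mean of 45.4% of a window in high bins (349 windows of 283 genes), 66.0% in low bins (229 windows of 188 genes) and 3.00% in the other bins (30818 windows). The median window recurred for 46.3% of its words in high bins, for 93.0% in low bins and for none in the other bins. More than 50% of the words recurred in 48.1% of the high windows, 69.9% of the low windows and 2.45% of the other windows. Recurring promoter sequence was thus more common on both sides than elsewhere, and most common on the low side. Neither side was uniform, since under 10% of the words recurred in 37.0% of the high windows and 25.8% of the low ones. Promoters of the low bins were poorer in GC (44.7%) than those of the high bins (50.3%) and of the other bins (54.1%). Only 134 high and 104 low bins held a RefSeq promoter window, so these values say nothing of the remaining members.

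**Figure D1:**
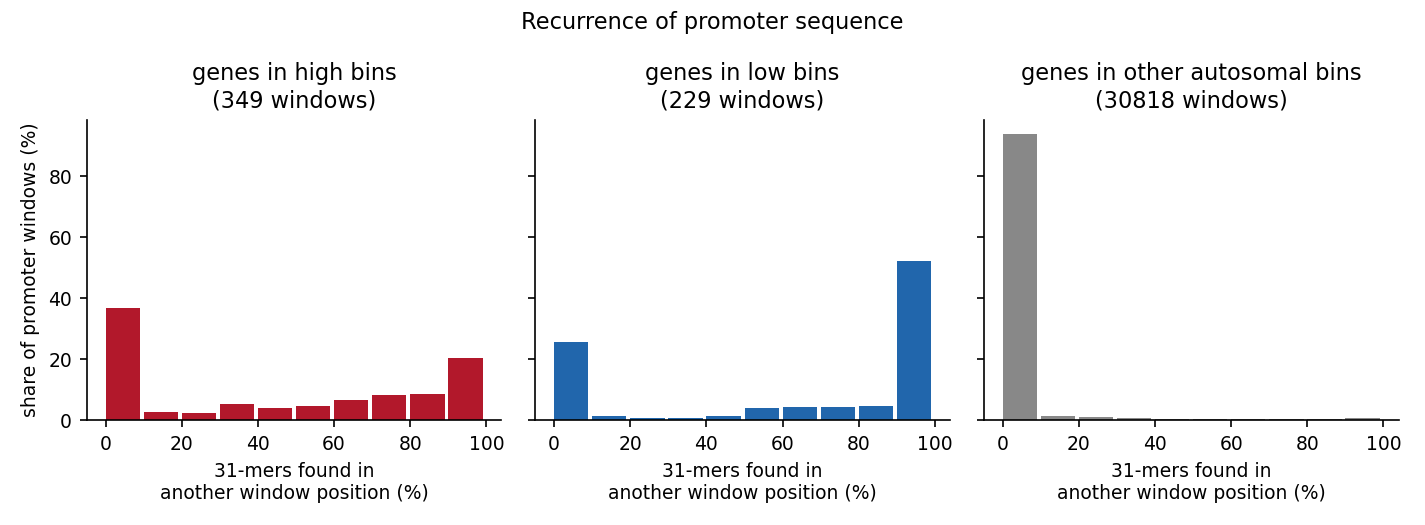
Share of RefSeq promoter windows (y axis, %) by the share of their 31-base words that occur at another promoter position (x axis, %), in high, low and other bins. The band from 90 to 100% held 20.3% of high, 52.4% of low and 0.831% of other windows.

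Deposited totals ran from 66.9 M to 269 M reads per library, and a median low bin held 906 to 3434 reads, a median high bin 5662 to 20837 and a median other bin 2393 to 9370, depending on the library. High bins took between 8.96 and 11.8% of a library's reads and low bins between 0.192 and 0.218%. Most of the high share lay in the 6 bins with the most input (7.01 to 10.2%), and the remaining high bins took 1.66 to 2.03%. Replicates differed by more than counting error over the 355 bins in all 12 groups (chi-square per degree of freedom 2.83 to 18.9), so no library pair was counted as one. Chromosome Y held 0.0868 to 0.100% of the reads of female libraries and 1.54 to 1.62% of those of male libraries, as labelled. The 100 kb bin that holds Sirt7 had 32.3 to 35.9 CPM in the input libraries of KO and WT cells alike, and a bin of this size cannot show the deletion.

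On the high side, 87 bins lay between 1.5 and 2 times the chromosome median, 57 between 2 and 3, 31 between 3 and 5, 7 between 5 and 10, and 8 above 10. The bin at chr2:98600001-98700000, a satellite bin by the rule, stood at 1752 times the median with a mean of 62140 CPM. Next came the satellite bin at chr9:3000001-3100000 (369 times), chr14:19400001-19500000 (365), chr9:35300001-35400000 (252), chr12:3100001-3200000 (50.1), chr6:103600001-103700000 within the adhesion molecule gene Chl1 (42.7) and chr11:3100001-3200000 (21.9), which overlaps Sfi1, a gene for a centrin-binding protein. These levels were local: the 4 bins around the chromosome 2 satellite stood at 0.905 to 0.978 times the median. Of the 190 bins that flanked runs of high bins, 172 belonged to neither side, and these had a median of 1.03. Next to the threshold lay bins at 1.506 on chromosome 6 (67600001-67700000), 1.509 at Speer4c and 1.513 at Disp1 just inside, and 1.483 at Hsd17b11, 1.475 at Gm2128 and 1.470 on chromosome 12 (114600001-114700000) just outside.

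On the low side, 128 bins lay between 0.25 and 0.5 times the median, 27 between 0.1 and 0.25, and 10 at or under 0.1. The emptiest, chr7:39000001-39100000, had 4 to 16 reads per input library and 73 in all 8. The bin of Gm4724 at chr2:175500001-175600000 had 91 input reads, and chr8:129300001-129400000 had 450. The bin of Skint3, chr4:112200001-112300000, stood at 0.0513 times the median with 2194 input reads. A count this small bounds what the tests below can detect in the emptiest bins. At the threshold the bins of Fam205a2 (0.4995), Intu (0.4991) and Vmn1r135 (0.4986) lay just inside, and chr12:24100001-24200000 (0.503), the bin of Il11ra2 (0.504) and that of Dctn6 (0.507) just outside. The flanks of low runs were themselves reduced, with a median of 0.825 over the 148 flanking bins that belonged to neither side.

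Both sides kept their level in the precipitated chromatin, which the rule had not used. Of the 190 high bins, 176 were above 1.5 times the chromosome median in the mean of the 8 gH2AX libraries and 181 in the 8 H2AX libraries, against 56 and 191 of the 23678 other bins. Of the 165 low bins, 143 were under 0.5 times the median with gH2AX and 131 with H2AX, against 15 and 6 of the other bins. Single libraries gave close counts, from 169 to 181 high bins with gH2AX and from 179 to 184 with H2AX, and from 141 to 146 and from 128 to 133 low bins. The median high bin stood at 2.08 times the chromosome median with gH2AX, 2.33 with H2AX and 2.08 in input. The median low bin stood at 0.358 times with gH2AX, 0.381 with H2AX and 0.374 in input. Relative to input, H2AX was above 0 on the log2 scale in 155 of 190 high bins (median 0.19) and 125 of 165 low bins (median 0.10), against a median of 0.0069 over the other bins, whereas gH2AX was above 0 in 86 and 68 (medians -0.02 and -0.04).

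**Figure D2:**
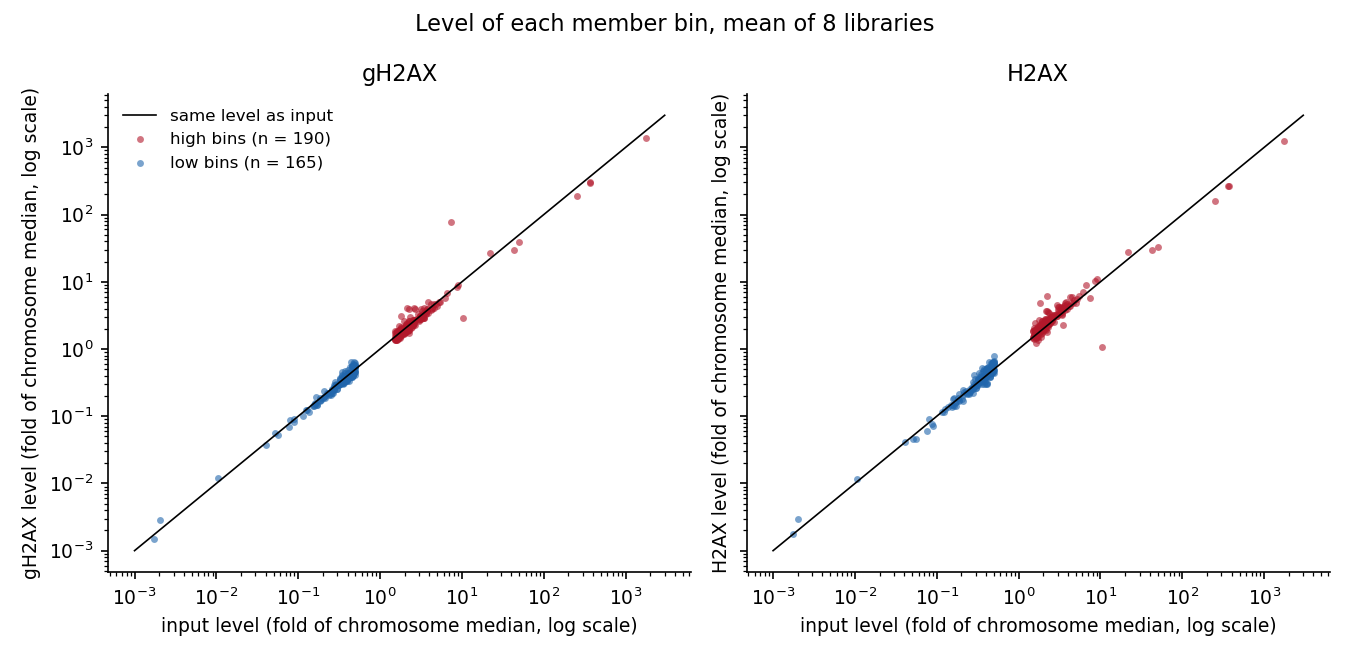
Level of each high (n = 190) and low (n = 165) bin with gH2AX and H2AX (y axes) against input (x axis), each as a fold of the chromosome median on log scales, mean of 8 libraries, with a line where both levels are equal. Most bins lie near the line, and the high bin far above it with gH2AX is the Rn18s-rs5 bin (76.2 with gH2AX and 7.37 in input).

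The bins were unevenly placed. Chromosome 14 held 44 of the 190 high bins (23.2%), and 53 high bins (27.9%) started within 5 Mb of the first counted bin of their chromosome, against 4 low bins (2.42%) and 892 other bins (3.77%). Chromosome 7 held 52 of the 165 low bins (31.5%) and 14 high ones, and chromosome 4 held 23 of each. Chromosomes 6 and 18 held high bins and no low bin. High bins formed 95 runs of adjacent members, the longest being the 14 bins of chr14:5700001-7100000 and the 13 bins of chr14:3800001-5100000, both filled with predicted genes. Low bins formed 81 runs, the longest being the 10 bins of chr7:21400001-22400000, 9 of them with Vmn1r genes, and the 10 bins of chr7:32300001-33300000, 9 of them with secretoglobin (Scgb) genes, which encode small secreted proteins. A pseudogene lay in 69.5% of high bins and 55.2% of low bins, against 28.2% of other bins. A long noncoding RNA gene lay in 45.3% of high bins and 17% of low bins, against 41.0% of other bins. Bins next to one with no input reads made up 5.79% of high, 4.24% of low and 0.160% of other bins.

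Gene families split between the sides, counted over the bins that each family overlapped. Vomeronasal receptors of type 1 fell on the low side alone, in 24 of 108 bins, and those of type 2 (Vmn2r) on the high side alone, in 7 of 113 bins. Other families with low bins and no high bin included Skint, whose founding member Skint1 selects a skin T cell subset (10 of 21 bins), alpha-defensins (Defa, 4 of 8), secretoglobins (9 of 32), T cell receptor alpha variable segments (Trav, 4 of 16), the oocyte-expressed Pramel and Oog genes (8 of 38) and the chemokines Ccl (3 of 17). Families with high bins and no low bin included immunoglobulin heavy chain variable segments (Ighv, 8 of 26), Speer genes (4 of 15) and the nuclear body genes Sp100, Sp110 and Sp140 (2 of 3). Zinc finger genes (Zfp) had 20 high and 7 low of 387 bins, 8 of them in the run chr4:146900001-147800000, and major urinary protein genes (Mup) had 3 high and 1 low of 18. Odorant receptors (Olfr), with 362 bins, had neither. Over all bins the shares were 0.791% high and 0.687% low. The families and their symbol patterns were listed with earlier results of these data known, and the counts carry no test.

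**Figure D3:**
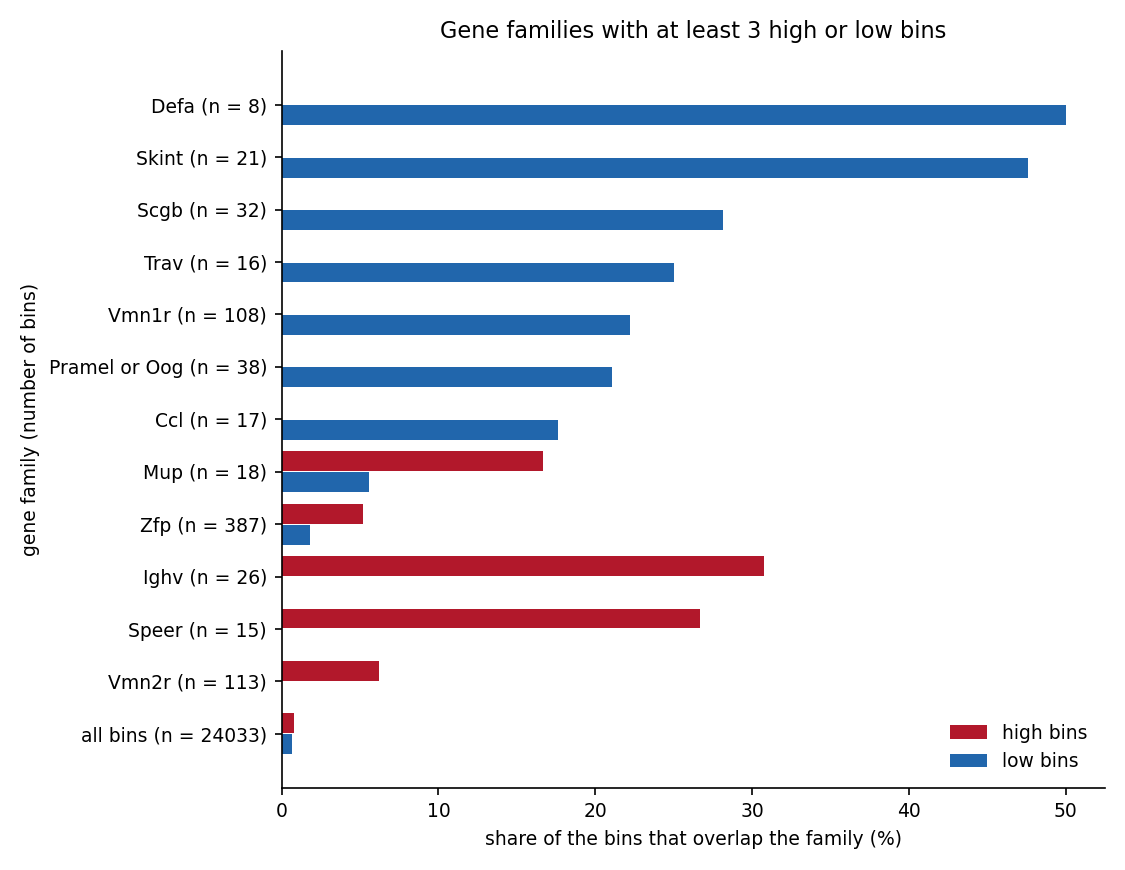
Share of the bins overlapping each gene family (x axis, %) that are high or low, with the number of bins of the family beside its name. Skint and Defa reach 47.6% and 50.0% on the low side, and Ighv reaches 30.8% on the high side.

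The first comparison that is independent of the rule set gH2AX against H2AX, the phosphorylated form against the total histone, averaged over the 4 sex and genotype groups. At equal library size, most members of both sides carried less gH2AX than H2AX. By edgeR's quasi-likelihood test at an adjusted p under 0.05, 162 of 190 high bins were lower and 20 higher, and 103 of 165 low bins were lower and 19 higher. Calls were common everywhere in this comparison, with 75.1% of all 25703 bins called, 38.5% higher and 36.6% lower. The called share was thus above the background on the high side (95.8%) and near it on the low side (73.9%), and the calls of both sides leaned to lower. The median log2 ratio was -0.21 over high bins and -0.12 over low bins, against 0.0040 over all bins. Both antibodies were scaled to the same effective library size, so a ratio says which antibody took the larger share of its reads and not how much histone was phosphorylated.

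Runs of duplicated genes mostly lay lower with gH2AX than with H2AX, where 36.6% of all bins were called lower. So did the sides they belong to, with 85.3% of high bins and 62.4% of low bins called lower. The lower level was thus not particular to these genes. All 37 high bins of chromosome 14 within 5 Mb of its first counted bin were called lower (median -0.23), as were all 11 high bins of chromosome 8 between 19600001 and 20900000 (median -0.25) and all 8 bins of chr1:84900001-85700000 with Sp110 and Sp140 (median -0.34). The 20 high Zfp bins (median -0.21), the 8 Ighv bins (-0.18), the 7 Vmn2r bins (-0.13) and the 4 Speer bins (-0.21) were also all called lower. Among low bins, 22 of 24 Vmn1r bins were called lower (median -0.14), 7 of 8 Pramel and Oog bins (-0.14), 7 of 7 Zfp bins (-0.21), 5 of 9 Scgb bins (-0.07) and 2 of 4 Defa bins (-0.06). Of the 4 Trav bins 2 were called lower and none higher (median -0.04). Skint bins differed from these, with 4 called higher, 1 called lower and a median of 0.01 over 10 bins. Adjacent bins of a run share sequence, so a run is closer to 1 observation than to its number of bins.

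The 4 bins furthest above this pattern were the Rn18s-rs5 bin on chromosome 17 (log2 ratio 3.64 ± 0.01, SE), the Lmbrd1 bin on chromosome 1 (1.43 ± 0.02), and the neighbouring bins chr6:47600001-47700000 (0.46 ± 0.01) and chr6:47700001-47800000 (0.48 ± 0.01), which hold the small RNA genes Rn4.5s, Rny1 and Rny3. Rny1 and Rny3 encode the Y RNAs bound by the Ro protein. At the Lmbrd1 bin both antibodies lay below input in every group, H2AX further than gH2AX, so its ratio is no excess of gH2AX over input. The lowest high bins were chr7:90400001-90500000 (-0.69 ± 0.02), chr14:45800001-45900000 (-0.61 ± 0.02), a Snhg14 bin at chr7:59700001-59800000 (-0.57) and chr12:20200001-20300000 (-0.46). Snhg14 is the long noncoding host of small nucleolar RNAs in the imprinted Prader-Willi and Angelman region. Low bins spanned a narrower range, from -0.53 at chr8:55100001-55200000 to 0.47 at chr5:151700001-151800000.

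KO and WT cells were then compared within each sex, which asks whether gH2AX, H2AX or input of a bin differed with the Sirt7 genotype. The satellite bins of the rule, chr2:98600001-98700000 and chr9:3000001-3100000, carried more gH2AX in female KO than in female WT cells. Both carried less in male KO than in male WT cells. At chr2:98600001-98700000, gH2AX was at 56268 and 56498 normalised CPM in female KO, against 51199 and 50929 in female WT cells, and at 45794 and 46001 in male KO, against 53441 and 54559 in male WT cells. The genotypes did not overlap within either sex, and the direction was opposite. The log2 change of KO against WT was 0.14 ± 0.02 (SE) in females (adjusted p = 9.50e-11, edgeR quasi-likelihood) and -0.23 ± 0.02 in males (adjusted p = 1.30e-30), and the changes differed by 0.38 ± 0.03 between the sexes (adjusted p = 2.14e-40).

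H2AX and input at the same bin moved far less. H2AX was at 48652 and 48422 normalised CPM in female KO, against 48635 and 46900 in female WT cells, and at 47389 and 45602 in male KO, against 48546 and 48585 in male WT cells, with no call in either sex (adjusted p = 0.956 and 0.0886). Input was at 66729 and 66248 in female KO, against 67620 and 66566 in female WT cells, and at 65223 and 63402 in male KO, against 64934 and 65040 in male WT cells (adjusted p = 0.931 and 0.913). The gH2AX level of KO was thus 1.10 times that of WT in females and 0.850 times in males, while neither H2AX nor input was called.

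The 6 bins with the most input shared this pattern. In females 5 of them were called higher in KO, with chr9:3000001-3100000 at 0.20 ± 0.02, chr14:19400001-19500000 at 0.18 ± 0.02, chr9:35300001-35400000 at 0.12 ± 0.02 and chr12:3100001-3200000 at 0.11 ± 0.03, while the Chl1 bin stood at 0.07 (adjusted p = 0.154). In males all 6 were called lower, from -0.26 ± 0.02 at chr9:3000001-3100000 to -0.17 ± 0.03 at the Chl1 bin. The female call of chr12:3100001-3200000 was lost without gH2AX female KO replicate 2 or female WT replicate 1 (0.08 for both), under DESeq2 (0.11) and with the input change subtracted (0.06). That of chr9:35300001-35400000 was lost without gH2AX female KO replicate 2 and with the input change subtracted (0.12 and 0.11). These changes depended on how a library's enrichment was treated. Once each library's trend on gH2AX enrichment was removed, an alternative chosen after seeing the data, chr2:98600001-98700000 lost both calls (0.06 in females, adjusted p = 0.135, and -0.06 in males, adjusted p = 0.0771), as did chr9:35300001-35400000 (0.03 and -0.04) and chr12:3100001-3200000 (0.02 and -0.02). The Chl1 bin turned round, to -0.06 in females with no call and 0.09 in males (adjusted p = 0.0103). Calls stayed in both sexes at chr9:3000001-3100000 (0.15 and -0.13) and chr14:19400001-19500000 (0.11 and -0.10). H2AX was called lower in male KO cells at chr9:35300001-35400000 (-0.11; adjusted p = 0.0157) and chr12:3100001-3200000 (-0.14; adjusted p = 0.0140). Both calls were lost on leaving out H2AX male KO replicate 2 (-0.07 and -0.08), male WT replicate 1 (-0.10 and -0.13) or male WT replicate 2 (-0.11 and -0.16). The Sfi1 bin, next in input level, had gH2AX changes of -0.07 (adjusted p = 0.157) in females and 0.00029 (adjusted p = 0.994) in males.

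The ratios between the bins with the most input varied little over the libraries, those to the chromosome 12 and Chl1 bins more. Reads at chr2:98600001-98700000 were 4.38 to 4.87 times those at chr9:3000001-3100000 over the 24 libraries, and 4.62 to 4.96 times those at chr14:19400001-19500000, a spread of 1.11-fold and 1.07-fold. The ratio to the chromosome 12 bin ran from 34.3 to 42.6 (1.24-fold) and to the Chl1 bin from 40.3 to 51.3 (1.27-fold). These spreads pool gH2AX, H2AX and input libraries, so they cannot be set against KO changes within gH2AX. Within the 8 gH2AX libraries the spread was 1.07-fold for chr9:3000001-3100000 and 1.07-fold for chr14:19400001-19500000. It was 1.02-fold for the chromosome 9 bin starting at 35300001, 1.06-fold for the chromosome 12 bin and 1.14-fold for the Chl1 bin. Whether the bins carry the same signal was not tested, and the calls are not counted as separate results.

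The Rn18s-rs5 bin, chr17:39800001-39900000, was the most gH2AX-enriched member and the one with the largest change. Rn18s-rs5 is a sequence related to the gene of 18S ribosomal RNA, the RNA of the small ribosomal subunit that is transcribed in the nucleolus from tandem arrays. gH2AX was at 2280 and 2101 normalised CPM in female KO, against 3699 and 3330 in female WT cells, and at 3823 and 3610 in male KO, against 2161 and 2059 in male WT cells. Female KO and male WT cells were low, and female WT and male KO cells were high, with no overlap. The log2 change was -0.68 ± 0.02 in females (0.623-fold; adjusted p = 3.26e-162) and 0.82 ± 0.02 in males (1.76-fold; adjusted p = 2.23e-232), and they differed by -1.50 ± 0.04.

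H2AX at this bin was called lower in KO cells of both sexes, at 219 and 218 normalised CPM in female KO, against 264 and 266 in female WT cells, and at 195 and 199 in male KO, against 221 and 225 in male WT cells (log2 changes -0.28, adjusted p = 5.15e-10, and -0.18, adjusted p = 0.000470). Without H2AX male WT replicate 2 the male call was lost (-0.17; adjusted p = 0.172). Input was lower in female KO cells (267 and 275, against 292 and 288 in female WT cells; -0.10, adjusted p = 0.000735) and not called in males (-0.03). With the input change subtracted, the gH2AX change was -0.58 in females and 0.85 in males, and the H2AX change was not called in either sex. Removing each library's trend on gH2AX enrichment turned both gH2AX changes round, to 0.09 in females and -0.31 in males. Both turned values were called (adjusted p = 0.00355 and 1.41e-37, edgeR quasi-likelihood). The bin had the highest ratio of gH2AX to input of all high bins (log2 ratio 3.38), against at most 2.03 over the other bins. The trend has few bins to rest on at that end, so the turned values cannot be read as corrected changes. The bins beside it were low members, at 0.30 and 0.0559 times the chromosome median in input, the nearer holding Esp38, a gene for an exocrine gland secreted peptide.

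The bin of Lmbrd1, chr1:24600001-24700000, moved the other way. Lmbrd1 encodes a lysosomal cobalamin transport protein, and the bin also holds Gm10222 and Gm10925. The name gives the position only, since reads were counted over 100 kb and not assigned to any of these genes. gH2AX was at 117 and 118 normalised CPM in female KO, against 106 and 98.1 in female WT cells, and at 81.9 and 76.4 in male KO, against 120 and 119 in male WT cells. Male KO cells stood clear below the other 3 groups. The log2 change was 0.21 ± 0.03 in females (adjusted p = 4.45e-08) and -0.60 ± 0.03 in males (adjusted p = 7.97e-76). H2AX was not called in either sex, at 38.9 and 37.9 in female KO, 39.2 and 38.9 in female WT, 39.0 and 36.9 in male KO and 37.9 and 37.4 in male WT cells. Input was lower in KO cells of both sexes, by -0.14 in females (adjusted p = 2.48e-08) and -0.12 in males (adjusted p = 7.50e-06). The male input call was lost without input male KO replicate 1 (-0.07) or input male WT replicate 2 (-0.08), and DESeq2 made neither input call. The bin stood at 10.3 times the chromosome median in input, 2.88 times with gH2AX and 1.06 times with H2AX, so that its excess was mostly absent from the H2AX libraries. After subtraction of the input change, gH2AX changed by 0.35 in females and -0.48 in males, both called. Removing the enrichment trend left gH2AX changes of -0.0060 in females and 0.0034 in males.

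**Figure D4:**
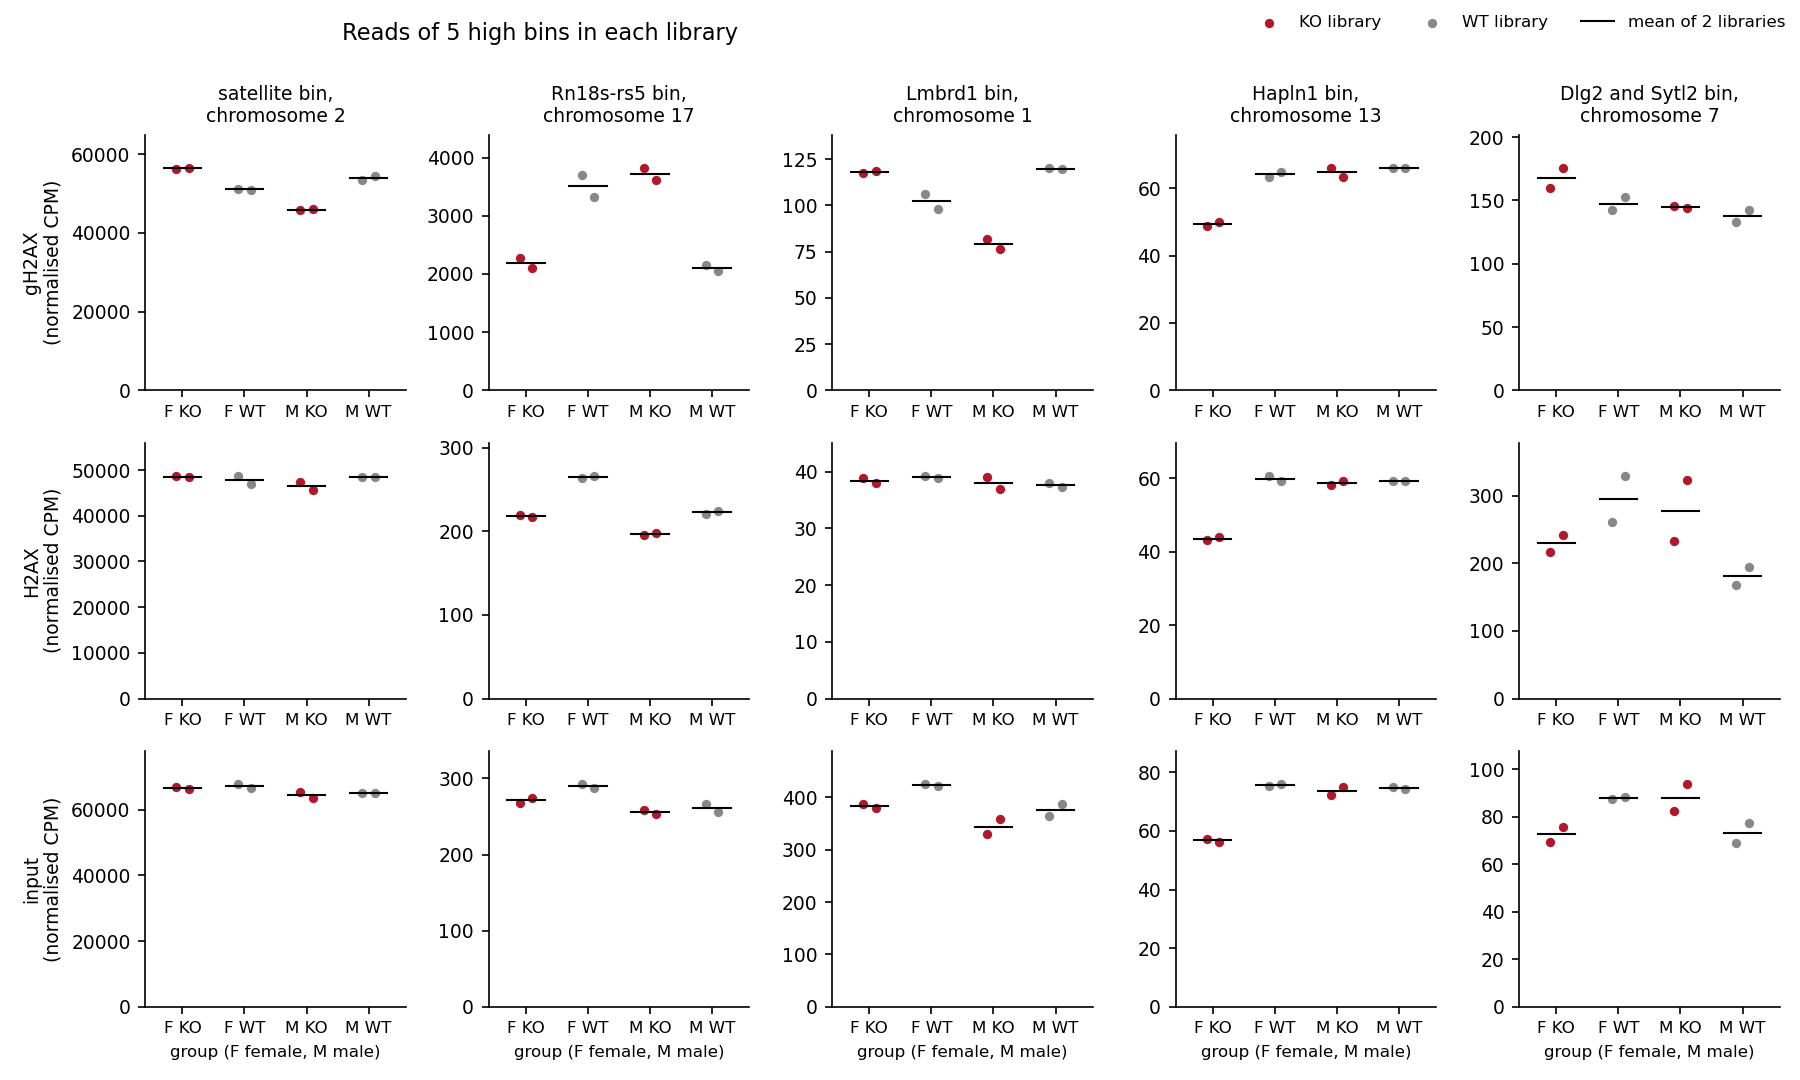
Normalised CPM (y axes, from 0) of 5 high bins with gH2AX, H2AX and in input (rows) in the 2 libraries of each sex and genotype group (x axes; F female, M male; the line is their mean). In the Rn18s-rs5 column gH2AX is low in female KO (2280 and 2101) and male WT (2161 and 2059) and high in the other groups, while in the Hapln1 column female KO is low in all 3 rows.

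Over all high bins, gH2AX differed between KO and WT in 14 of 190 bins in females (11 higher, 3 lower), where 1.01% of all bins were called (0.416% higher, 0.595% lower), and in 96 in males (23 higher, 73 lower), where 44.7% were. The female share (7.37%) was above the background and the male share (50.5%) near it, but in males the calls leaned to lower, whereas over all bins 22.4% were higher and 22.2% lower. No low bin was called in females by edgeR (0 of 164; 10 at an unadjusted p under 0.05, and 0 by DESeq2), and 48 were in males (15 higher, 33 lower), a share of 29.3% that was below the background. One low bin, chr7:39000001-39100000, had too few reads to be tested. The female count on the high side was lower without gH2AX female KO replicate 2. The male count on the low side was lower without any 1 of the male libraries. In each fit without 1 library given in this paragraph, the share called over all bins fell as well. The KO change differed between the sexes in 90 high and 35 low bins, where 40.5% of all bins were called, and the low count was 20 without gH2AX female KO replicate 2 and 23 without gH2AX male KO replicate 1. With gH2AX read relative to H2AX in 1 fit, KO differed from WT in 7 high bins in females, where 0.237% of all bins were called, and in 81 in males (15 higher, 66 lower), where 30.1% were (15.9% higher, 14.3% lower), and in 0 low bins in females (10 at an unadjusted p under 0.05) and 25 in males. Without H2AX male WT replicate 1 the 81 became 52. The 25 became 15 without H2AX male KO replicate 2 or gH2AX male KO replicate 1, and 14 without gH2AX male WT replicate 2.

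The direction of called changes in males went with the gH2AX level of a bin relative to input, with a median near 0 for the members above input. Among high bins with more input than gH2AX, 69 of 104 were called lower in male KO cells and none higher (median -0.10). Among those with more gH2AX than input, 23 of 86 were called higher and 4 lower (median -0.0032). Low bins gave 0 higher and 31 lower of 96 in the first class (median -0.10), and 15 higher and 2 lower of 68 in the second (median 0.0076). In the other bins 5165 of 12126 were called lower in the first class (median -0.08) and 5526 of 11552 higher in the second (median 0.08). The classes rest on the same gH2AX libraries as the KO change, so these counts are a description with no test. With the enrichment trend removed, 19 high and 2 low bins were called in males, where 1.67% of all bins were, and 9 high bins in females, where 0.253% were. In all, 119 of 190 high bins were higher in female KO and lower in male KO cells than in their WT, 28 the reverse, 14 higher in both and 29 lower in both. Of 164 low bins 73 were higher in female KO and lower in male KO cells and 26 the reverse, and of the 23678 other bins 8531 and 8349.

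**Figure D5:**
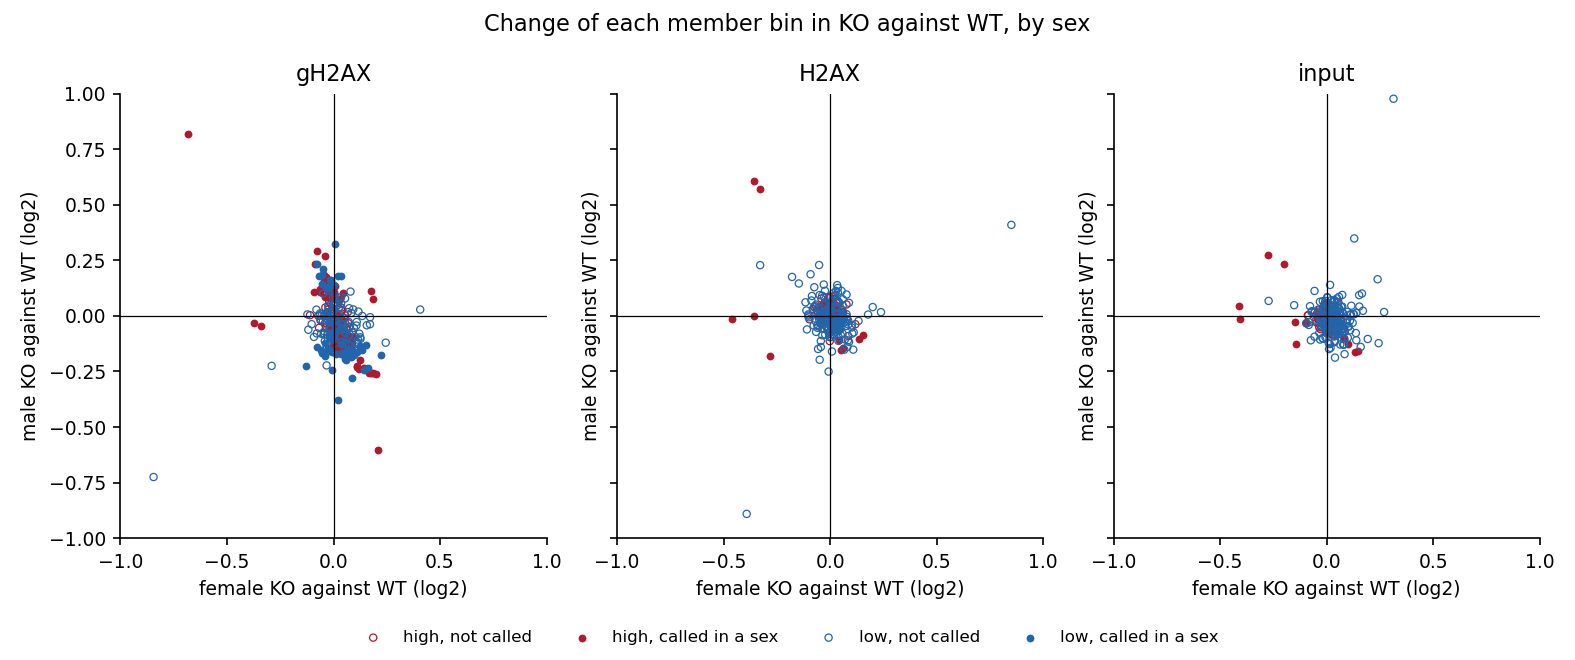
Log2 change of KO against WT in females (x axes) and males (y axes) for each high and low bin with gH2AX, H2AX and in input, filled where the change was called in a sex. With gH2AX the cloud runs from upper left to lower right, with the Rn18s-rs5 bin at -0.68 and 0.82 and the Lmbrd1 bin at 0.21 and -0.60.

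Gene family bins showed small changes in males, where 22.2% of all bins, 38.4% of high bins and 20.1% of low bins were called lower. In male KO cells gH2AX was called lower in 8 of 8 Ighv bins (median -0.13), 14 of 20 high Zfp bins (-0.10), 5 of 7 Vmn2r bins (-0.12), 3 of 4 Defa bins (-0.16), 4 of 8 Pramel and Oog bins (-0.13), 3 of 7 low Zfp bins (-0.12), 3 of 10 Skint bins (-0.14) and 2 of 9 Scgb bins (-0.10), and none was called higher. Of the 4 Speer bins 1 was called lower (-0.06), and of the 4 Trav bins none was (-0.06). The chromosome 14 cluster moved less, with 2 of 37 bins called lower (median -0.04), as did the 24 Vmn1r bins, with 2 called lower (-0.06). None of these bins was called in females, where 1.01% of all bins were. Female medians ran from -0.01 (Scgb) to 0.07 (Vmn1r). None was called for H2AX or input in either sex, where 0.152 to 0.222% of all bins were. With shares this low, the absence of calls says little about the families.

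Among single bins outside these families, the rises in male KO cells were led on the high side by the Ly6c1 bin, chr15:75000001-75100000, with 208 and 203 normalised CPM of gH2AX in male KO, against 171 and 165 in male WT cells (0.29 ± 0.03; adjusted p = 9.96e-20). Ly6c1 encodes a surface protein of monocytes and endothelial cells. Input at this bin was called lower in female KO cells (-0.15; adjusted p = 2.53e-08). The bins of Rn4.5s and of Rny1 and Rny3 followed at 0.23 ± 0.03 and 0.27 ± 0.03, then the Btbd9 bin of chromosome 17 (0.18) and chr6:114500001-114600000 (0.17). Each was between -0.09 and -0.03 in females, with no call. Removing the enrichment trend ended the male calls of the Rn4.5s, Rny1 and Btbd9 bins (0.05, 0.08 and 0.10) and turned that of chr6:114500001-114600000 to -0.09. The male call of the Ly6c1 bin stayed, at a smaller change of 0.16.

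On the low side, chr17:13600001-13700000 rose most, with 23.9 and 24.5 normalised CPM in male KO, against 20.1 and 18.4 in male WT cells (0.32 ± 0.05; adjusted p = 2.69e-09). It was at 21.8 and 21.5 in female KO, against 21.6 and 21.4 in female WT cells, a change of 0.01. The bins of Entpd4 and Synb (0.23) and of Entpd4b (0.21), near each other on chromosome 14, and that of Traf5 and Rcor3 (0.18) followed. Entpd4 encodes an intracellular nucleotidase and Synb a syncytin of the placenta. Their calls were lost once the enrichment trend was removed (0.13, 0.10 and 0.05).

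The low bins that fell most in male KO cells ranged from 0.114 to 0.498 times the chromosome median in input. chr3:15600001-15700000, the emptiest of them, had 3.34 and 2.93 normalised CPM in male KO, against 4.45 and 3.38 in male WT cells (-0.38 ± 0.11; adjusted p = 0.00208), and its call was lost without gH2AX male KO replicate 2 (-0.26) or male WT replicate 1 (-0.14), and under DESeq2 (-0.34). The bins of Skint6 (-0.28), of Skint1 and Skint4 (-0.24), of Gm11009 at chr2:176300001-176400000 (-0.24) and of Mup14 (-0.24) also fell. The Gm11009 call was lost without gH2AX male KO replicate 1 (-0.23), male KO replicate 2 (-0.27) or male WT replicate 1 (-0.20) and under DESeq2, and the Mup14 call without any 1 of the 4 male libraries (-0.24 to -0.23). Subtraction of the input change ended the calls of the Skint6 (-0.21), Gm11009 (-0.29) and Mup14 (-0.20) bins. Removal of the enrichment trend ended all 5 calls, at -0.24 for the chromosome 3 bin, -0.20 for Skint6, -0.10 for Skint1 and Skint4, -0.12 for Gm11009 and -0.20 for Mup14.

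H2AX and input changed between genotypes in few members. H2AX was called in 7 high bins in females (2 higher, 5 lower), where 0.152% of all bins were (0.0311% higher, 0.121% lower). It was called in 6 in males (2 higher, 4 lower), where 0.191% were (0.105% higher, 0.0856% lower). Input was called in 9 high bins in females (2 higher, 7 lower), where 0.183% of all bins were (0.0506% higher, 0.132% lower). It was called in 8 in males (2 higher, 6 lower), where 0.222% were (0.0973% higher, 0.124% lower). The share of high bins called was above the background in each of these comparisons, which was not tested. The calls included neighbouring bins, such as the Hapln1 bins in females, and bins of a chromosome 14 cluster. The called bins are thus not separate observations. No low bin was called for H2AX by edgeR (10 in females and 18 in males at an unadjusted p under 0.05) or for input (21 and 15), and DESeq2 gave 0 as well. The female H2AX count was 3 without H2AX female KO replicate 1 or female WT replicate 2. The male H2AX count was 10 without H2AX male KO replicate 1, 3 without male KO replicate 2 and 2 without male WT replicate 2, and the male input count was 5 without input male WT replicate 1. In each of these fits the share called over all bins moved in the same direction. The KO change differed between the sexes in 9 high bins and 1 low bin for H2AX (0.272% of all bins called) and in 11 high bins and 1 low bin for input (0.261%). Input entered the rule only as a mean over all 8 libraries, so its KO changes were not used to choose the bins.

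The Hapln1 bins on chromosome 13 were low in female KO cells in every kind of library. Hapln1 encodes a link protein of the cartilage and fibroblast matrix, and its neighbour Vcan the proteoglycan versican. At chr13:89500001-89600000 input was at 57.3 and 56.4 normalised CPM in female KO, 75.2 and 75.8 in female WT, 72.3 and 74.8 in male KO and 74.9 and 74.1 in male WT cells. gH2AX was at 48.9 and 50.0 in female KO, 63.5 and 64.7 in female WT, 66.0 and 63.5 in male KO and 66.0 and 65.9 in male WT cells. Female KO cells stood alone below the other 3 groups. Their log2 change against female WT was -0.41 ± 0.03 in input (adjusted p = 4.97e-29), -0.46 ± 0.03 with H2AX and -0.38 ± 0.03 with gH2AX. The next bin, chr13:89600001-89700000, gave -0.41, -0.36 and -0.34. In males no change was called, and the sexes differed (-0.39 ± 0.04 in input, -0.45 ± 0.04 with H2AX). With the input change subtracted, the gH2AX changes were 0.03 and 0.07 and not called. The flanking bins stood at 1.40 and 1.04 times the chromosome median in input. The Hapln1 bins themselves both stood at 1.87 times that median in the mean of all input libraries. Copy number was not tested in any group, nor was the cause of the difference between female KO cells and the other 3 groups.

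A pair of high bins on different chromosomes changed in the same directions in H2AX and input. chr7:90400001-90500000 overlaps Dlg2, a synaptic scaffold gene, and Sytl2, a membrane traffic gene, and chr14:45800001-45900000 holds the pseudogene Gm8317. H2AX at the chromosome 7 bin was at 217 and 243 normalised CPM in female KO, against 261 and 329 in female WT cells, and at 233 and 323 in male KO, against 168 and 195 in male WT cells. Replicates lay further apart here than in the other bins shown, although the genotypes did not overlap. The log2 change was -0.36 ± 0.06 in females (adjusted p = 4.10e-05) and 0.61 ± 0.06 in males (adjusted p = 8.52e-13), and the chromosome 14 bin gave -0.33 ± 0.06 and 0.57 ± 0.06. The female calls were lost without H2AX female KO replicate 1 (-0.28 and -0.27) or female WT replicate 2 (-0.18 for both), under DESeq2, and with the input change subtracted (-0.08 and -0.13). DESeq2 did not call the male changes either. The ratio of these bins ran from 1.12 to 1.42 over the 24 libraries, and whether they carry 1 signal was not tested. The level at the chromosome 7 bin ran from 69.1 to 329 normalised CPM, over gH2AX, H2AX and input libraries together.

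Input at this pair changed in the same direction as H2AX, with -0.28 and -0.20 in female KO cells and 0.27 and 0.23 in male KO cells, and DESeq2 made none of these 4 calls. The male H2AX changes were 0.33 and 0.34 with the input change subtracted and stayed called. gH2AX changed by 0.19 and 0.17 in female and 0.08 and 0.11 in male KO cells. The female ones were 0.46 and 0.38 with the input change subtracted and stayed called, while DESeq2 called neither unsubtracted one. The female gH2AX calls were lost without gH2AX female KO replicate 2 (0.12 and 0.10), and that of chromosome 14 also without female WT replicate 1 (0.12). The bins beside the chromosome 7 bin stood at 1.10 and 1.07 times the chromosome median in input and those beside the chromosome 14 bin at 0.945 and 1.05.

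A cluster on chromosome 14 changed in input and in gH2AX. At chr14:43300001-43400000 input was at 114 and 112 normalised CPM in female KO, against 101 and 103 in female WT cells, and at 99.9 and 104 in male KO, against 115 and 113 in male WT cells. The input change was 0.15 ± 0.02 in females (adjusted p = 3.18e-07) and -0.16 ± 0.02 in males (adjusted p = 8.99e-08), gH2AX changed by 0.17 and -0.26, and H2AX by 0.16 and -0.08. With the input change subtracted neither gH2AX change was called (0.03 and -0.09). The H2AX call in females was lost on leaving out any 1 of the 4 female H2AX libraries (0.15 to 0.16). Neighbouring bins of the same predicted-gene cluster, at 43200001 and 43500001, had input changes of 0.13 and 0.10 in females and -0.16 and -0.13 in males, the female change at 43500001 not being called (adjusted p = 0.147). The female call at 43200001 was lost without input female KO replicate 1 (0.10) or female WT replicate 1 (0.13). The male call at 43500001 was lost without input male KO replicate 1 (-0.12), male WT replicate 1 (-0.12) or male WT replicate 2 (-0.13) and under DESeq2 (-0.13).

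Female and male cells were compared over both genotypes. gH2AX differed in 13 high bins (11 higher in females) and 4 low bins, where 1.71% of autosomal bins were called (0.782% higher). H2AX differed in 23 high (20 higher) and 4 low bins, where 3.9% were (2.04% higher), and input in 13 high (9 higher) and 2 low bins, where 0.712% were (0.408% higher). The H2AX calls in high bins were small, led by the Rn18s-rs5 bin (0.20), the Dlg2 and Sytl2 bin (0.22), the Gm8317 bin (0.20) and the Ly6c1 bin (0.11). Females were higher in both genotypes at the Rn18s-rs5 bin (log2 ratios of the group means 0.15 in KO and 0.25 in WT cells) and at the Ly6c1 bin (0.07 and 0.15). The pair of Dlg2 and Gm8317 bins went opposite ways, with females lower than males in KO (-0.27 and -0.26, overlapping libraries) and higher in WT cells (0.70 and 0.65, no overlap). These ratios within a genotype were not tested. Without H2AX male WT replicate 1 the 23 calls fell to 8, without female KO replicate 1 to 10, without female KO replicate 2 to 9, without female WT replicate 2 to 15 and without male WT replicate 2 to 14. The 4 low bins called for H2AX became 1 without female KO replicate 1, 7 without male KO replicate 2, and 2 without female KO replicate 2, female WT replicate 1 or male WT replicate 1. The 4 called for gH2AX became 2 without gH2AX male WT replicate 1, and 1 without female KO replicate 1, female WT replicate 1, male KO replicate 2 or male WT replicate 2. The share called over all bins moved in the same direction in each of these fits. At the Lmbrd1 bin female cells had more input over both genotypes (0.16, with log2 ratios of the group means of 0.15 in KO and 0.17 in WT cells). The gH2AX difference over both genotypes (0.17) had no common direction, since females were higher than males in KO (0.57) and lower in WT cells (-0.23). The Hapln1 bins were lower in females with gH2AX over both genotypes (-0.21 and -0.20), with log2 ratios of female to male means of -0.39 and -0.34 in KO and -0.04 and -0.05 in WT cells. The largest difference among low bins was in input at chr17:40000001-40100000, beside the Rn18s-rs5 and Esp38 bins, with 1.68 to 1.89 normalised CPM in female and 2.03 to 2.44 in male libraries (-0.37 ± 0.09; adjusted p = 0.000955). Without input male WT replicate 2 that call was lost (-0.31), and no low bin was called.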

How the data were processed

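The authors deposited 1 table of read counts per 100 kb bin of mm10, with 24 libraries used here. The submitters' processing notes list Bowtie2 2.2.9, MACS2 2.2.7.1, SAMtools 0.1.19, deepTools 2.4.2, Trimmomatic 0.36 and FastQC 0.11.3, with no order of use. The treatment of reads with several alignments and of duplicates is not given in the sources used here. A further 24 columns of the table matched no sample and were not used.

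CPM used the library total. Tests used edgeR 4.0.16 (R 4.3.3): TMM on autosomal bins, filterByExpr, a quasi-likelihood F test per antibody or input over chromosomes 1 to 19 and X, and Benjamini-Hochberg adjustment over all bins tested (25702 for gH2AX, 25703 otherwise), called at 0.05. The standard error was taken as |log2 change| over the root of F. Normalised CPM is per M effective reads (TMM-scaled). The gH2AX fit of female KO against WT was also run on simulated counts, with the outcome not given here. Each antibody and input was fitted over its 8 libraries, and gH2AX against H2AX over all 24.

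Alternatives were DESeq2 1.42.0, no filter, library sizes without the members, a replicate block, leaving out each library, subtraction of the input change and, added after seeing the data, removal of each library's loess trend on the mean log2 antibody to input ratio. The tests of the sex difference for H2AX and input were also added after seeing the data. Whether a replicate number pairs libraries is not labelled. Over the other autosomal bins, deviations of same-numbered KO and WT libraries of an antibody or input and sex correlated by -0.012 to 0.061.

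Members and family lists were chosen with earlier results of these data known. Bins were named by a rule: those furthest from the chromosome median, those next to a threshold, the most extreme called bins per comparison and side whose groups did not overlap, and the longest runs. The bins of the family and run summaries, the Rn18s-rs5 flanks, chr14:43200001-43300000 and chr14:43500001-43600000 outside their own comparison, and the sequences shown were chosen after their values were seen. Gene names and promoters came from RefSeq (GRCm38.p6). A genome sequence was not used, so the planned base composition of bins was not computed. Numpy 2.4.6, pandas 2.3.3 and matplotlib 3.10.9 were used.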

Additional observations from a re-analysis of the deposited data

Results flagged for a closer look

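In each bin given here the log2 change of KO against WT differed between the sexes, by edgeR's quasi-likelihood test of that difference at an adjusted p under 0.05. The bins are those named for a KO change in the same kind of library, values are the female change minus the male change, and no cause was tested. Over all bins this difference was called in 40.5% for gH2AX, 0.272% for H2AX and 0.261% for input. For gH2AX it was called in 47.4% of high and 21.3% of low bins. The bins were named for their extreme called KO changes in these libraries, so the number of differences among them is no result of its own.

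The gH2AX change was more positive in females at 7 high bins. The differences were 0.81 at chr1:24600001-24700000, 0.46 at chr9:3000001-3100000, 0.44 at chr14:19400001-19500000 and 0.43 at chr14:43300001-43400000. They were 0.42 at chr13:77400001-77500000, 0.35 at chr9:35300001-35400000 and 0.11 at chr7:90400001-90500000. It was more positive in males at 8 high bins, with -1.50 at chr17:39800001-39900000, -0.37 at chr15:75000001-75100000, -0.34 at chr13:89500001-89600000 and -0.29 at chr13:89600001-89700000. The other 4 were at -0.32 (chr6:47600001-47700000), -0.31 (chr6:47700001-47800000), -0.22 (chr17:30400001-30500000) and -0.21 (chr6:114500001-114600000). On the low side the gH2AX difference was 0.40 at chr3:15600001-15700000, 0.40 at the Mup14 bin, 0.39 at the Skint1 and Skint4 bin and 0.37 at the Skint6 bin. It was -0.31 at chr17:13600001-13700000, -0.31 at the Entpd4 bin, -0.26 at the Entpd4b bin and -0.24 at the Traf5 bin.

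The H2AX change differed most at chr7:90400001-90500000 (-0.97) and chr14:45800001-45900000 (-0.90), and at the Hapln1 bins (-0.45 and -0.35). It differed by 0.24 at chr14:43300001-43400000, 0.24 at chr14:43500001-43600000, 0.20 at chr12:3100001-3200000, 0.20 at the Mrgprd and Mrgprf bin of chromosome 7 and 0.15 at chr9:35300001-35400000.

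The input change differed by -0.55 at chr7:90400001-90500000, -0.43 at chr14:45800001-45900000, -0.39 and -0.46 at the Hapln1 bins and -0.12 at the Ly6c1 bin. It differed by 0.31 at chr14:43300001-43400000, 0.30 at chr14:43200001-43300000, 0.23 at chr14:43500001-43600000, 0.18 at chr13:77400001-77500000 and 0.13 at chr12:3100001-3200000.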

How the results depend on the processing

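For 104 changes of named bins, 1206 alternative values were computed, of which 1019 kept direction and call, 176 kept direction and lost the call, 1 gained a call and 10 changed sign. With the input change subtracted, gH2AX in females turned to 0.035 and 0.073 and H2AX to 0.060 at Hapln1 bins. With the enrichment trend removed, gH2AX turned to 0.093 in females and -0.31 in males at the Rn18s-rs5 bin, to -0.0060 and 0.0034 at the Lmbrd1 bin, to -0.086 in males at chr6:114500001-114600000, and to -0.058 and 0.090 at the Chl1 bin. Of the values with the trend removed, both at the Rn18s-rs5 bin and the male value at the Chl1 bin were called. The cause was not tested.

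Called gH2AX changes in females numbered 7 high bins with input subtracted (0.389% of all bins) and 9 with the trend removed (0.253%), against 14. In males they were 52 and 19 on the high side, against 96, and 8 and 2 on the low side, against 48, with 27 by DESeq2. The shares of all bins called there were 19.6%, 1.67% and 35.9%. The sex difference of the KO change was called in 43 and 19 high bins and 9 and 1 low bins, with 20 low bins by DESeq2 (23.1%, 0.899% and 32.0% of all bins). Input subtraction left 0 (females) and 2 (males) called H2AX changes. DESeq2 called 3 male input changes on the high side, 1 (gH2AX), 2 (H2AX) and 1 (input) low bins between the sexes, and 0 low bins for the sex difference of H2AX and of input. Limits of 0.4 and 2 kept 97 low and 103 high bins.

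Leaving out 1 library gave these ranges for high bins, while the share called over all bins changed with the library left out too. gH2AX KO calls were 8 to 15 in females and 67 to 73 in males, H2AX 3 to 5 and 2 to 10, input 7 to 9 and 5 to 8, and gH2AX relative to H2AX in males 52 to 78. Between the sexes gH2AX gave 11 to 13, H2AX 8 to 33 and input 10 to 17. On the low side gH2AX KO calls were 0 to 1 in females and 19 to 29 in males, H2AX in males 0 to 2, and gH2AX relative to H2AX in males 14 to 24. Low bins between the sexes were 1 to 3 for gH2AX, 1 to 7 for H2AX and 0 to 3 for input. The sex difference of the KO change was called in 20 to 33 low bins for gH2AX, 0 to 2 for H2AX and 0 to 1 for input.

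The replicate block gave 19 and 112 gH2AX calls on the high side in females and males, 50 on the low side in males, 110 and 37 for the sex difference, 8 and 8 for H2AX and 34 for H2AX between the sexes. Whether same-numbered libraries were paired is not labelled. The block changed 1 call among the 104, that of gH2AX at the Chl1 bin in females (0.072; adjusted p = 0.00286). The lowest counts limit the emptiest bins, where 1 gH2AX library held 1 read.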
